A study of Mus musculus with 6 samples.

Results

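Ddit4, the 3 sestrin genes and 6 core genes of the mTORC1 growth pathway (Deptor, Mtor, Rptor, Tsc1, Tsc2 and Rheb) were followed in RNA-seq of inguinal fat, which lies under the skin and can turn on heat production in beige adipocytes when mice are kept cold. They were taken by gene symbol and make up 10 of the 17342 named genes. All 10 were found, and all 10 were among the 11086 genes that averaged 1 FPKM or more and were tested (FPKM divides the fragments of a gene by the length of its transcript and by all fragments mapped in the library). The set was chosen knowing that Ddit4 was among the genes that differed most between the genotypes of this study, so the genotype differences of the 10 genes are given as a description and nothing rests on them. The tissue came from cold-stimulated, 8-week-old C57BL/6 mice, 3 libraries of wild type (WT, replicates 1 to 3) and 3 of Rarres2-/- (replicates 4 to 6), in which the gene for chemerin is disrupted. Chemerin is a signalling protein secreted by adipocytes. All groups had been in the cold, and fat from warm-housed mice was not analysed here. The sources used here do not give the temperature, the time in the cold, the sex of the mice or which part of Rarres2 was removed. Whether every library is a mouse of its own is not stated, so the spread between libraries may be technical.

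mTORC1 is a protein kinase complex that drives protein and lipid synthesis and restrains autophagy when nutrients and growth factors are plentiful. Its catalytic subunit is Mtor and its substrate-binding scaffold is Raptor (Rptor). The small GTPase Rheb switches the kinase on at the lysosome, and the Tsc1-Tsc2 complex switches Rheb off. Ddit4 (also called REDD1) is a short-lived protein induced by low oxygen, glucocorticoids, energy shortage and endoplasmic reticulum stress, and it inhibits mTORC1 through the Tsc1-Tsc2 complex. Sestrins inhibit mTORC1 on the amino acid branch by binding the GATOR2 complex, and Sesn2 releases GATOR2 when it binds leucine. Deptor binds Mtor directly and inhibits it. In fat, mTORC1 supports adipocyte differentiation and lipid storage, and it is also activated downstream of β-adrenergic signalling.

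Ddit4 and Sesn2, which are both stress-induced inhibitors, lay higher in every Rarres2-/- library than in any WT library. So did Mtor and Rptor, the genes of the kinase and its scaffold, and Deptor, by margins of 1.06, 1.13 and 1.04 times. The separation of Mtor, Rptor and Deptor depended on scaling. Of all tested genes 5.81% lay higher in this way, and as the set was chosen on this contrast, nothing is read from the count. The stretches of 250 bases before the start sites of Ddit4, Sesn2, Mtor and Rptor are shown. They are from RefSeq on GRCm38.p6, the assembly that mm10 stands for, and run 5′ to 3′ on the strand of the gene. Capitals mark ACGTG, a form of the core of the hypoxia response element, and CCAAT, the box bound by NF-Y, each found on either strand (CACGT and ATTGG on the other strand). The other form of that core, GCGTG, was not searched and is not marked.
Ddit4, chr10:59951771-59952020, minus strand: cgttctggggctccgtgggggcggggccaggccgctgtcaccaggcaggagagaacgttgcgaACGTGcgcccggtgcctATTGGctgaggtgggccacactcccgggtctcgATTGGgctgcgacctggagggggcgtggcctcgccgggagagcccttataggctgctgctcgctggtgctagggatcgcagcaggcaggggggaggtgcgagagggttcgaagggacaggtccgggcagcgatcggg
Sesn2, chr4:132510457-132510706, minus strand: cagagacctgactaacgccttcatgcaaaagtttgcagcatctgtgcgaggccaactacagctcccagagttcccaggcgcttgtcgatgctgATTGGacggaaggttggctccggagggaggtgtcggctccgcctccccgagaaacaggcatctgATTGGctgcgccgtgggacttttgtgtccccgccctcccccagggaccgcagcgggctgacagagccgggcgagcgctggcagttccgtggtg
Mtor, chr4:148448332-148448581, plus strand: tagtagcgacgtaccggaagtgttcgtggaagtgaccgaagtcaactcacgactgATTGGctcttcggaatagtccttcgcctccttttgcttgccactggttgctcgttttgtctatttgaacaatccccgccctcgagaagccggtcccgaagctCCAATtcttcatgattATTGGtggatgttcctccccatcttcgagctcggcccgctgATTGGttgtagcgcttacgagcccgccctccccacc
Rptor, chr11:119602655-119602904, plus strand: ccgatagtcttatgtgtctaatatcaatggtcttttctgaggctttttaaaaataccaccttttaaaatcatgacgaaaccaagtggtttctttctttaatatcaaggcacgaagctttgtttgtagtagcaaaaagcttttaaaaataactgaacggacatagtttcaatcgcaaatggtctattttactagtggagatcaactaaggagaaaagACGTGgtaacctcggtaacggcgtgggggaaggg
The Ddit4 window held 1 ACGTG, 187 to 183 bases before the start, and 2 CCAAT boxes. Sesn2 held 2 CCAAT boxes and Mtor held 4, while Rptor held 1 ACGTG at 34 to 30 bases and no CCAAT. A promoter was found for 9 of the 10 genes, without Deptor. Sesn1 had 2 windows, each with 1 CCAAT box. The start of 1 of these windows did not match the start of a GENCODE transcript, and that of the other did. Members are counted by gene, and the shares set beside them are of single promoters. CCAAT was in 5 of the 9 (Ddit4, all 3 sestrins and Mtor), against 33.9% of 32841 promoters of the same length, and 4 of the 9 held at least 2 of these boxes, against 10.1%. ACGTG was in 3 of the 9 (Ddit4, Rptor and Rheb), against 16.6%. The E-box CACGTG, which contains ACGTG, was in 1 of the 9 (Rheb), against 6.02%. No window held the C/EBP-ATF element core TGATGCAA (0.792% of all promoters), the cAMP response element TGACGTCA (1.55%), the FOXO element TGTTTAC (3.17%) or the glucocorticoid half-site TGTTCT (16.1%), on either strand. CCAAT was searched after the sequences had been seen. The windows differed in base composition, with 70.0% G and C in Ddit4, 63.2% in Sesn2, 54.4% in Mtor and 37.6% in Rptor.

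The genes themselves differ widely in build. Ddit4 is a compact gene on chromosome 10 (59949675 to 59951770, GRCm38), 2096 bases from end to end, with 3 exons and 229 codons in GENCODE M21. Rptor, on chromosome 11 (119602905 to 119899591), spans 296687 bases with 34 exons, and Mtor, on chromosome 4 (148448582 to 148557685), has 58 exons and 2549 codons. The longest coding transcripts of Sesn1, Sesn2 and Sesn3 have 10 exons each, and code for 551, 480 and 492 amino acids. Sesn1 shares chromosome 10 with Ddit4, and Sesn2 (132492804 to 132510456) shares chromosome 4 with Mtor. Exons of Tsc2 overlap those of Pkd1 on the other strand over 693 bases, those of Deptor overlap Gm9920 over 303 bases, and those of Rptor overlap the antisense gene Rptoros over 84 bases. The sources used here do not say whether counting used strand, so reads from these stretches cannot be assigned to either gene of a pair.

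The genotype labels were checked on Rarres2, which measured 436, 610 and 505 FPKM in the WT libraries and 0.260, 6.35 and 1.41 FPKM in Rarres2-/- replicates 4, 5 and 6. All libraries had the markers of fat, with Adipoq at 2118 to 2809 FPKM, and all 6 epithelial markers looked for were under 1 FPKM in every library. WT replicate 1 and Rarres2-/- replicate 4 stood apart from the others. The summed endothelial markers were at 228 FPKM in WT replicate 1 against 42.2 and 45.1 FPKM in WT replicates 2 and 3, and at 155 FPKM in Rarres2-/- replicate 4 against 41.0 and 47.9 FPKM in replicates 5 and 6. Of the 6 endothelial markers, 5 were highest of their genotype in both of these libraries. Skeletal muscle markers summed to 1194 FPKM in WT replicate 1 and to 139 to 411 FPKM elsewhere, and 8 of 8 progenitor and 9 of 10 macrophage markers were lowest of all in WT replicate 1. White adipocyte markers summed to 39627 FPKM in Rarres2-/- replicate 4 and to 58429 to 75170 FPKM elsewhere, and 5 of 8 were lowest of all there. Some markers of fat and muscle cells did not overlap between the genotypes. Of 7 brown and beige adipocyte markers 3 were apart (42.9%, against 10.3% of all tested genes), all higher in Rarres2-/-: the uncoupling protein gene Ucp1 (43.1, 46.6 and 56.1 FPKM in the WT libraries, 61.5, 62.8 and 74.6 FPKM in those of Rarres2-/-, log2 difference 0.44), the thyroid hormone deiodinase gene Dio2 (0.54) and Otop1 (0.76). The genotypes overlapped in the rest of that list, Ppargc1a (0.32), Elovl3 (0.18), Cidea (-0.03) and Cox8b (-0.28). Over the list 5 were higher and 2 lower in Rarres2-/-, with a median of 0.32. Of 8 white adipocyte markers, the lipid droplet genes Plin1 (0.51) and Cidec (0.25) were apart and higher and the adipsin gene Cfd (-0.66) apart and lower (37.5% of the list). Of 7 tested muscle markers the myosin gene Myh1 was apart and higher (log2 difference 1.58, the WT libraries at 0.148 to 0.241 FPKM and the others at 1.26 to 4.01 FPKM). Over that muscle list 4 were higher and 3 lower in Rarres2-/-, with a median of 0.05. By limma 0 of these markers passed the test, and their part in the results on the 10 genes was not tested. In whole tissue, fewer cells of a type and less RNA per cell cannot be told apart. FPKM holds no read counts. From the spacing of the lowest values, depth relative to WT replicate 2 was put at 0.480 in WT replicate 1 and 0.696 to 1.01 in the other libraries. These are rough estimates, as the most common ratio held 19 of 763 low genes in WT replicate 1 and 42 of 959 in Rarres2-/- replicate 5.

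Ddit4 was at 39.2, 14.9 and 16.7 FPKM in WT replicates 1, 2 and 3, and at 114, 88.4 and 70.6 FPKM in Rarres2-/- replicates 4, 5 and 6. The genotypes did not overlap, and the lowest Rarres2-/- library was 1.80 times the highest WT library. Mean expression of 23.6 ± 13.6 FPKM in WT compared with 91.0 ± 21.9 FPKM in Rarres2-/- (SD, n = 3 each), a ratio of 3.86. On the log2(FPKM + 1) scale, which understates changes of low genes, the difference was 2.01 (SE 0.380). Within WT, Ddit4 varied more than most genes: its coefficient of variation was 57.5%, above that of 92.1% of tested genes, and replicate 1 was at 2.64 times the level of replicate 2. Ddit4 was highest of its genotype in WT replicate 1 and in Rarres2-/- replicate 4, the libraries with the most endothelial marker RNA. Without these 2 libraries the ratio of means was 5.03 and the log2 difference 2.25 (SE 0.142). Leaving out the highest library of each genotype narrows the spread, and 58.1% of all tested genes were then apart. The part of endothelial RNA in the Ddit4 level was not tested. With any 1 library left out the log2 difference ran from 1.76 to 2.43.

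**Figure D1:**
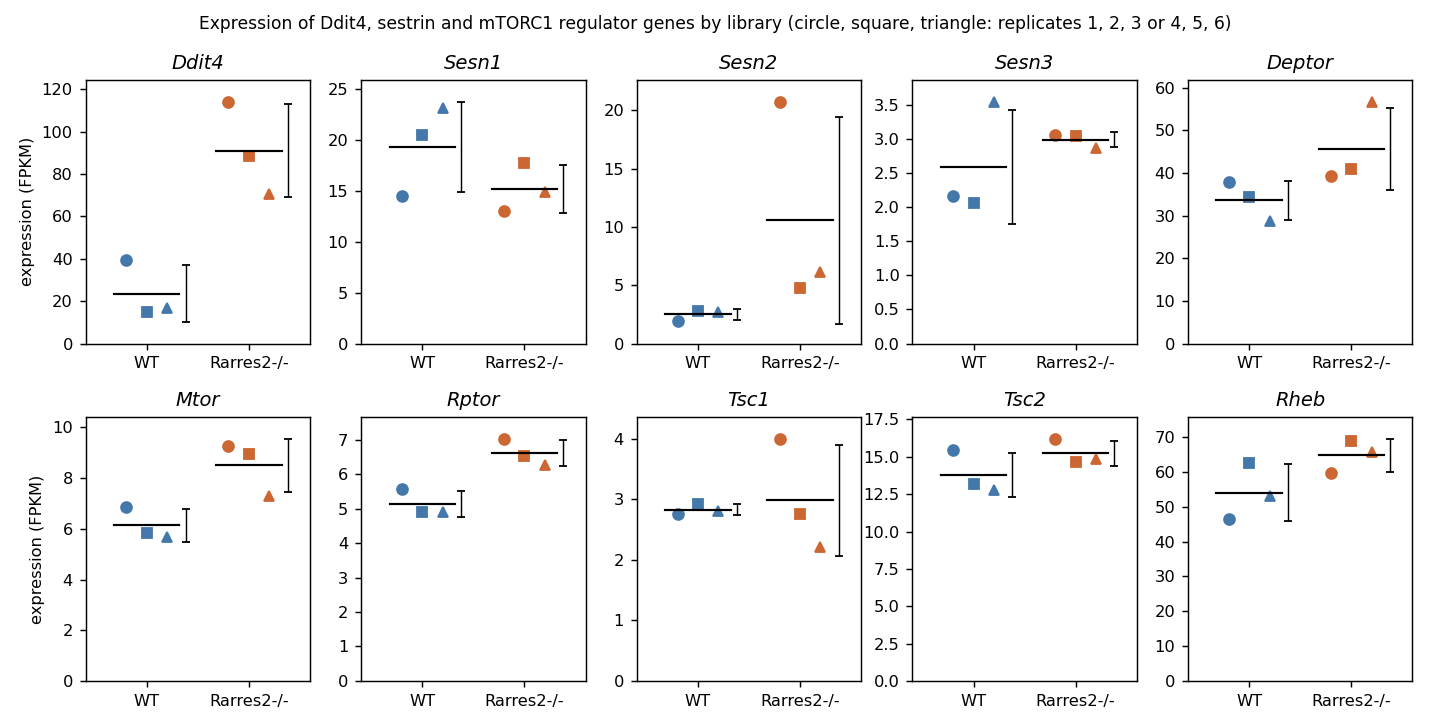
Expression in FPKM (vertical axes, linear and from 0) of the 10 genes in 3 WT and 3 Rarres2-/- libraries, with a panel for each gene. Each symbol is a library, the horizontal line the mean and the bar beside it the SD. The genotypes are apart in Ddit4, Sesn2, Deptor, Mtor and Rptor, and Rarres2-/- replicate 4 (circle) is far above the others in Sesn2.

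The sestrins did not move together. Sesn2 measured 1.95, 2.80 and 2.73 FPKM in the WT libraries and 20.8, 4.77 and 6.16 FPKM in Rarres2-/- replicates 4, 5 and 6. All 3 Rarres2-/- libraries lay above WT, the lowest by a factor of 1.70 over the highest WT library. The means were 2.50 ± 0.472 and 10.6 ± 8.85 FPKM (SD, n = 3 each), a ratio of 4.23 and a log2 difference of 1.47 (SE 0.477). Its size rested on Rarres2-/- replicate 4: without that library the ratio was 2.19 and the log2 difference 0.89, and without WT replicate 1 as well they were 1.97 and 0.77. The part of the higher endothelial marker RNA of replicate 4 in its Sesn2 level was not tested. The coefficient of variation of Sesn2 in Rarres2-/- was 83.8%, above that of 98.3% of tested genes.

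Sesn1, a sestrin that p53 induces as it does Sesn2, was the most abundant of the 3 in WT and measured 14.5, 20.4 and 23.1 FPKM in the WT libraries and 13.0, 17.7 and 14.9 FPKM in those of Rarres2-/-. The genotypes overlapped, with a log2 difference of -0.31 (SE 0.210). Sesn3, a sestrin that FOXO factors induce, measured 2.15, 2.06 and 3.54 FPKM in the WT libraries and 3.06, 3.04 and 2.86 FPKM in those of Rarres2-/-, also overlapping (log2 difference 0.18, SE 0.190). The 3 Rarres2-/- libraries were close to each other in Sesn3 and lay within the range of WT.

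FPKM is scaled to transcript length, so the sestrins can be set side by side as shares of their sum. Sesn2 made up 10.5%, 11.1% and 9.29% of sestrin FPKM in WT, and 56.3%, 18.7% and 25.8% in Rarres2-/- replicates 4, 5 and 6. Sesn1 made up 77.9% to 80.8% in WT and 35.4%, 69.4% and 62.2% in Rarres2-/-. The share of Sesn3 overlapped, at 8.13% to 12.0% in WT and 8.29% to 12.0% in Rarres2-/-. Summed sestrin expression overlapped as well, at 18.6, 25.3 and 29.4 FPKM in the WT libraries and 36.8, 25.5 and 23.9 FPKM in those of Rarres2-/-. The Rarres2-/- libraries held a larger part of their sestrin RNA as Sesn2, and the sums of replicates 5 and 6 were within the range of WT. Ddit4 and Sesn2 did not keep a fixed proportion between libraries: Ddit4 was 5.30 to 20.1 times Sesn2 in WT and 5.50 to 18.5 times in Rarres2-/-.

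**Figure D2:**
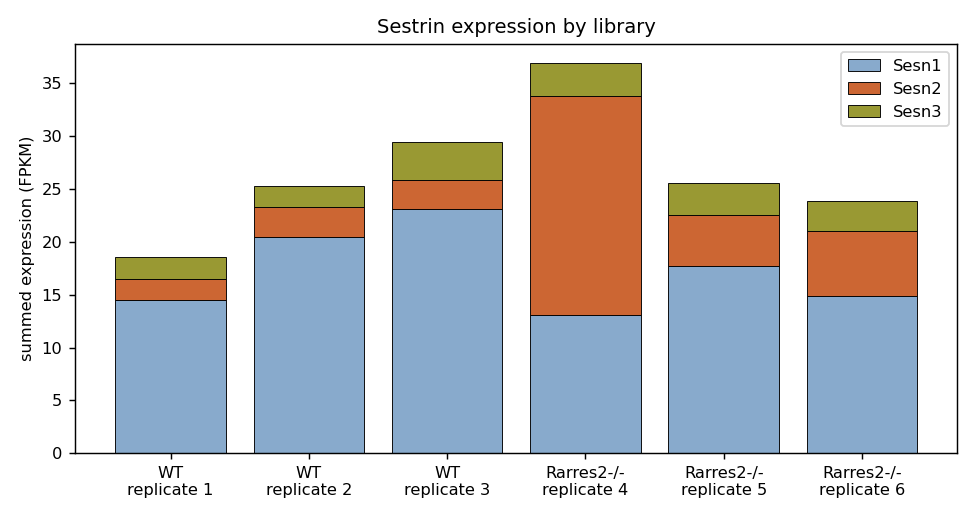
Stacked bars of Sesn1, Sesn2 and Sesn3 expression in FPKM (vertical axis) in each of the 6 libraries. The Sesn2 segment is larger in all 3 Rarres2-/- libraries, and in replicate 4 it makes up 56.3% of the bar.

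Among the genes of the kinase complex, Mtor measured 6.87, 5.84 and 5.69 FPKM in the WT libraries and 9.26, 8.93 and 7.31 FPKM in those of Rarres2-/-. Its genotypes did not overlap, by a margin of 1.06 times, and the log2 difference was 0.41 (SE 0.146). Rptor measured 5.58, 4.91 and 4.92 FPKM in the WT libraries and 7.03, 6.52 and 6.28 FPKM in those of Rarres2-/-, apart by a margin of 1.13 times, with a log2 difference of 0.31 (SE 0.125). The kinase and its scaffold kept a narrow proportion, Rptor being 0.813 to 0.863 times Mtor in WT and 0.730 to 0.860 times in Rarres2-/-. Rptor was also among the steadier genes within each genotype, with coefficients of variation of 7.53% in WT and 5.75% in Rarres2-/-, where the medians over all tested genes were 15.8% and 18.9%. Deptor, the inhibitor that binds Mtor, measured 37.8, 34.3 and 28.8 FPKM in the WT libraries and 39.3, 41.0 and 56.8 FPKM in those of Rarres2-/-. Its libraries were apart by 1.04 times only, with a log2 difference of 0.42 (SE 0.198). At 5.05 to 5.88 times Mtor in WT and 4.25 to 7.77 times in Rarres2-/-, Deptor was the more abundant transcript of the pair in every library.

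The Tsc1-Tsc2-Rheb arm overlapped between the genotypes in all 3 genes. Tsc1, which stabilises Tsc2, measured 2.75, 2.93 and 2.81 FPKM in the WT libraries and 3.99, 2.75 and 2.20 FPKM in those of Rarres2-/- (log2 difference 0.03, SE 0.191). Rarres2-/- replicate 4 lay above and replicates 5 and 6 below all WT libraries, and the log2 difference was -0.14 without replicate 4. Tsc2, the GTPase-activating subunit through which Ddit4 acts, measured 15.5, 13.2 and 12.7 FPKM in the WT libraries and 16.2, 14.7 and 14.8 FPKM in those of Rarres2-/- (0.14, SE 0.136). Tsc2 was 4.06 to 6.73 times as abundant as Tsc1 over the 6 libraries. Rheb measured 46.6, 62.6 and 53.1 FPKM in the WT libraries and 59.6, 68.9 and 65.7 FPKM in those of Rarres2-/- (0.26, SE 0.169), with 2 of 3 Rarres2-/- libraries above all of WT.

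**Figure D3:**
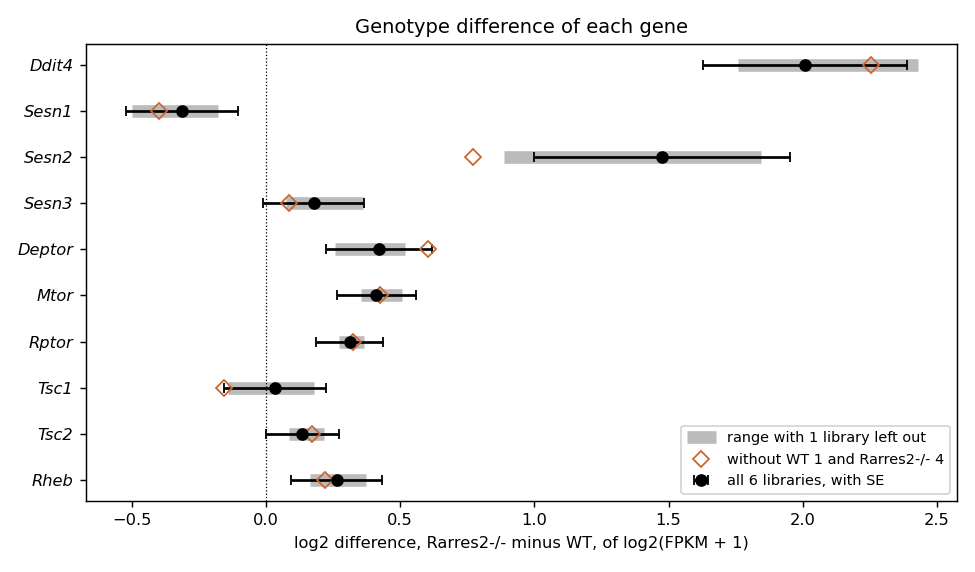
Difference of log2(FPKM + 1), Rarres2-/- minus WT (horizontal axis), for the 10 genes. Points are the values from all 6 libraries with their SE, grey bars the range when any 1 library is left out, and open diamonds the value without WT replicate 1 and Rarres2-/- replicate 4. Ddit4 (2.01) and Sesn2 (1.47) lie to the right of the other 8, and the diamond of Sesn2 is at 0.77.

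In all, 9 of the 10 genes had a higher mean of log2 values in Rarres2-/- and 1, Sesn1, a lower one, with a median log2 difference of 0.29. Over all tested genes the median was -0.01. The genotypes did not overlap in 5 of the 10, all higher in Rarres2-/-, where 5.81% of all tested genes were higher and 4.53% lower without overlap. As the set was chosen on this contrast, nothing is read from that count. It depended on scaling in 4 genes: Ddit4 and Sesn2 were apart under all 3 other scalings, Deptor and Rptor under 2 and Mtor under 1 of them, and Rheb was apart under upper-quartile scaling. Without WT replicate 1 and Rarres2-/- replicate 4, 9 of the 10 were apart, but so were 58.1% of all tested genes. By limma, 0 of the 10 had an adjusted p under 0.05, as had 0% of the 11086 genes tested. The adjusted p was 0.888 for Ddit4 and 0.999 for each of the other 9. At an unadjusted p under 0.05 there were 4 of the 10 (Ddit4, Sesn2, Mtor and Rptor), against 3.93% of all genes.

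The order of the 10 genes by mean FPKM changed at the top. In WT, Rheb led at 54.1 ± 8.07 FPKM and lay above Deptor in every library, while Deptor, Ddit4, Sesn1 and Tsc2 followed with each overlapping the next. In Rarres2-/-, Ddit4 led at 91.0 ± 21.9 FPKM and its lowest library was above the highest of Rheb (64.8 ± 4.75 FPKM), which in turn was above Deptor (45.7 ± 9.62 FPKM; SD, n = 3 each). Mtor was above Rptor without overlap in both genotypes. At the bottom, Tsc1, Sesn3 and Sesn2 could not be ordered in WT, with means of 2.83, 2.58 and 2.50 FPKM. In Rarres2-/- only Sesn3 and Tsc1, at 2.99 and 2.98 FPKM, remained at that level, and Sesn2 overlapped Mtor and Sesn1.

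The other genes of the pathway were read from lists of 73 genes, of which 70 had a row and 66 were tested. By limma, 0 of the 66 passed the test in either direction. Of these, 39 had a higher and 27 a lower mean of log2 values in Rarres2-/-, with a median log2 difference of 0.04. The genotypes did not overlap in 10 of the 66 (15.2%), 8 higher and 2 lower, against 10.3% of all tested genes. That count was 6 (9.09%, against 8.33%) when libraries were scaled without the 20 most abundant genes. With fewer libraries more genes are apart: it was 16 (24.2%, against 25.3% of all genes) without WT replicate 1, 19 (28.8%, against 15.9%) without WT replicate 2, 26 (39.4%, against 34.4%) without Rarres2-/- replicate 4 and 16 (24.2%, against 19.5%) without Rarres2-/- replicate 6.

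On the growth factor side, 8 of 11 tested genes of the insulin-AKT input were higher in Rarres2-/- (median log2 difference 0.17) and 3 were apart (27.3%). Over all tested genes 48.6% were higher and 10.3% apart, and the counts of the shorter lists that follow are to be read against these shares. Irs2, an adaptor of the insulin receptor, measured 4.72, 4.36 and 5.59 FPKM in the WT libraries and 14.9, 9.06 and 11.6 FPKM in those of Rarres2-/- (log2 difference 1.10, SE 0.196). Pik3cb, a catalytic subunit of PI3-kinase, measured 9.25, 11.7 and 10.7 FPKM in the WT libraries and 15.6, 20.5 and 15.6 FPKM in those of Rarres2-/- (0.65, SE 0.166). Akt2, the AKT kinase of insulin-stimulated glucose uptake, had a log2 difference of 0.27 (SE 0.161). Irs2 stood furthest out of all 66 pathway genes.

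On the energy side, 7 of 9 genes of AMPK and its activating kinase LKB1 were higher (median 0.10). The AMPK subunit genes Prkaa2 and Prkag2 were apart (22.2% of the list), with Prkag2 at 14.9, 15.8 and 15.3 FPKM in the WT libraries and 25.5, 18.3 and 18.2 FPKM in those of Rarres2-/-, and log2 differences of 0.29 and 0.39. On the amino acid side, 3 of 8 tested Rag GTPase, Ragulator and folliculin genes were higher (median -0.09), and 1, the Rag GTPase gene Rragc, was apart at 0.32 (12.5% of the list). Of 12 genes of the GATOR complexes, of which GATOR2 is bound by the sestrins, of KICSTOR and of arginine sensors, 8 were higher (median 0.04) and 1, the GATOR2 subunit gene Seh1l, was apart at 0.25 (8.33%, below the share of all genes). The range over those 12 was narrow, from -0.08 to 0.25.

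Of 8 further subunits and assembly factors of the mTOR complexes, 6 were higher (median 0.11), and Prr5, a subunit of mTORC2, was apart at 0.29 (12.5%, where 10.3% of all genes were apart). Ddit4l, the paralog of Ddit4, was below a mean of 1 FPKM and was not tested. It was listed with the Tsc-Rheb genes Tbc1d7 (log2 difference 0.18) and Rhebl1 (-0.47, SE 0.230), whose genotypes overlapped. Rhebl1 had the lowest log2 difference of the 66 pathway genes and was at 0.727 to 2.47 FPKM. Among 16 substrates and effectors of mTORC1, 6 were higher and 10 lower (median -0.02), and the 2 that were apart (12.5%) were lower. Tfeb, a transcription factor of lysosome genes that mTORC1 keeps in the cytoplasm, measured 12.9, 9.60 and 9.01 FPKM in the WT libraries and 6.86, 7.51 and 7.76 FPKM in those of Rarres2-/- (log2 difference -0.44, SE 0.164). Maf1, a repressor of RNA polymerase III, had a log2 difference of -0.28 (SE 0.163). The translation repressor Eif4ebp1 was at 270 to 413 FPKM with overlapping genotypes (-0.01).

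**Figure D4:**
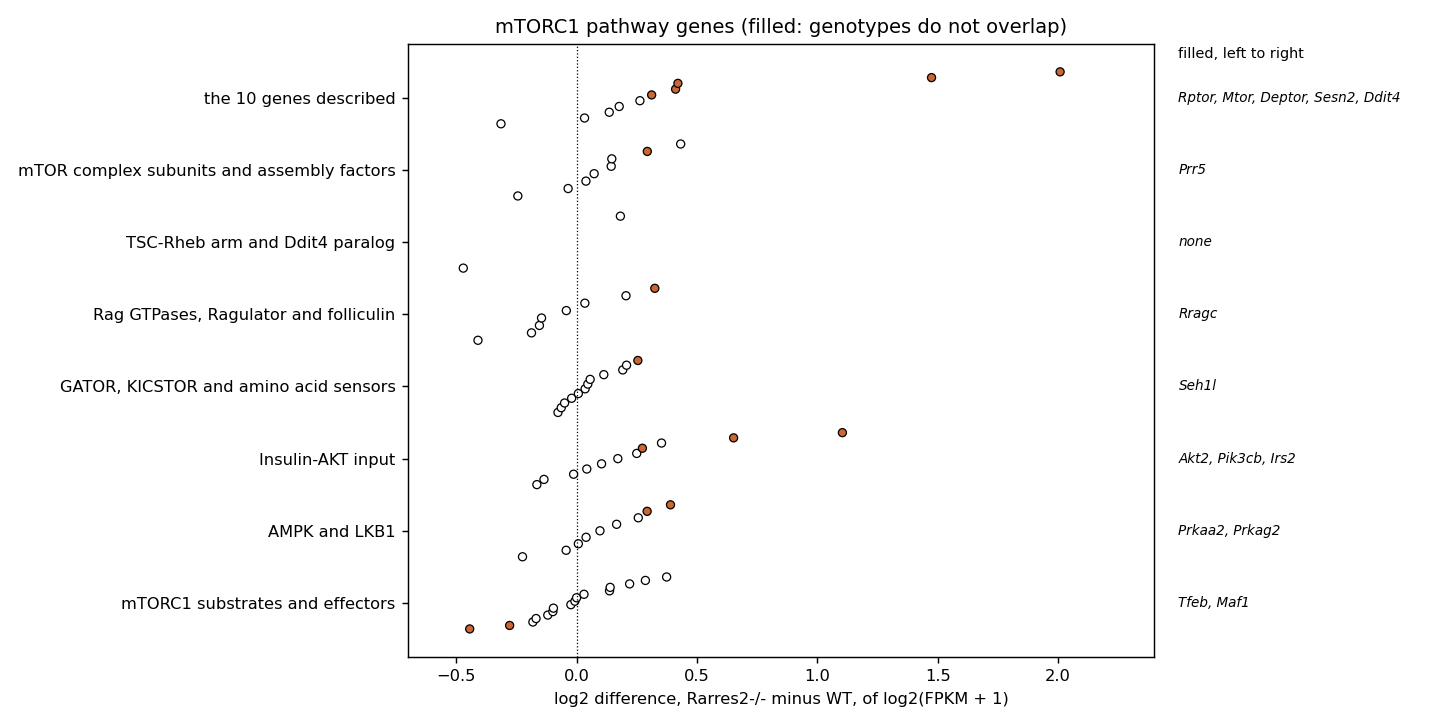
Difference of log2(FPKM + 1), Rarres2-/- minus WT (horizontal axis), of the 10 genes and of 66 other genes of the pathway, in rows by role. Each circle is a gene, filled where the genotypes do not overlap, and the filled genes are named at the right. Ddit4 and Sesn2 lie further out than any other gene shown, and the 2 filled genes in the bottom row, Tfeb and Maf1, are lower in Rarres2-/-.

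Ddit4 and sestrin genes are known to be induced by several stress pathways, and lists of other genes that these induce were set beside them. Of 8 glucocorticoid-induced genes, 6 were higher in Rarres2-/- (median log2 difference 0.53) and 2 were apart (25.0%), where 48.6% of all tested genes were higher and 10.3% apart. The lists were made with results of these data known, so nothing is read from these counts. The 2 genes were Tsc22d3 (92.6 to 98.0 FPKM in the WT libraries against 166, 266 and 188 FPKM, 1.08) and Errfi1 (5.32, 12.6 and 26.5 FPKM against 31.1, 46.7 and 31.7 FPKM, 1.47). Zbtb16 was the lowest of the list at -0.66. Of 8 FOXO-induced genes, 6 were higher (median 0.23) and 2 were apart (25.0%, against the same 10.3%), Irs2 and the pyruvate dehydrogenase kinase gene Pdk4. Pdk4 measured 22.4, 17.0 and 59.1 FPKM in the WT libraries and 216, 68.9 and 97.5 FPKM in those of Rarres2-/- (1.96, SE 0.565).

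Of 7 tested ATF4-induced genes, 5 were higher (median 0.24) and 1, the glutathione-degrading enzyme gene Chac1, was apart (14.3%, against 10.3% of all genes). Chac1 measured 2.84, 3.39 and 1.96 FPKM in the WT libraries and 18.0, 7.09 and 6.35 FPKM in those of Rarres2-/- (1.50, SE 0.376), with its highest value in replicate 4 as for Sesn2. Ddit3, a stress transcription factor of the same list, was the lowest at -0.76, and its genotypes overlapped. The genotypes overlapped in all 7 hypoxia-induced genes tested (median 0.10) and in all 7 p53-induced genes (median 0.25). Among 11 transcription factors known to act on these promoters 3 were apart (27.3%, against 10.3%). Cebpb was apart and higher (151, 117 and 134 FPKM in WT, 233, 191 and 317 FPKM in Rarres2-/-, 0.86). The glucocorticoid receptor gene Nr3c1 (-0.24) and Nfe2l2 (-0.28) were lower and just apart, the closest libraries being at 41.0 FPKM in both genotypes for Nr3c1 and at 46.7 and 47.2 FPKM for Nfe2l2. By limma, 0 genes of these lists passed the test in either direction, as was so for 0% of all genes.

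The genes whose profile over the 6 libraries was most like that of Ddit4 were sought by the mean absolute difference of log2 deviations, each gene being centred on its own mean. Members and genes with predicted-model symbols (Gm number or Rik) were left out of the search. The 5 nearest were Sntb1 (0.49), the alpha-arrestin gene Arrdc3 (0.51), Chac1 (0.52), the lipoprotein lipase inhibitor gene Angptl4 (0.52) and the muscle myosin light chain gene Myl3 (0.53), where the median over the tested genes that were searched was 1.03. Arrdc3 measured 8.54, 10.4 and 16.0 FPKM in the WT libraries and 52.6, 37.7 and 29.4 FPKM in those of Rarres2-/-. Among the Rarres2-/- libraries it was highest in replicate 4 and lowest in replicate 6, as were Ddit4, Sntb1 and Chac1. Among the WT libraries Arrdc3 was lowest in replicate 1, where Ddit4 was highest. The measure uses the genotype difference of each gene as well as the spread within genotypes. Sesn2 was the nearest of the other 9 members at 0.72, and Sesn1 the furthest at 1.18.

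**Figure D5:**
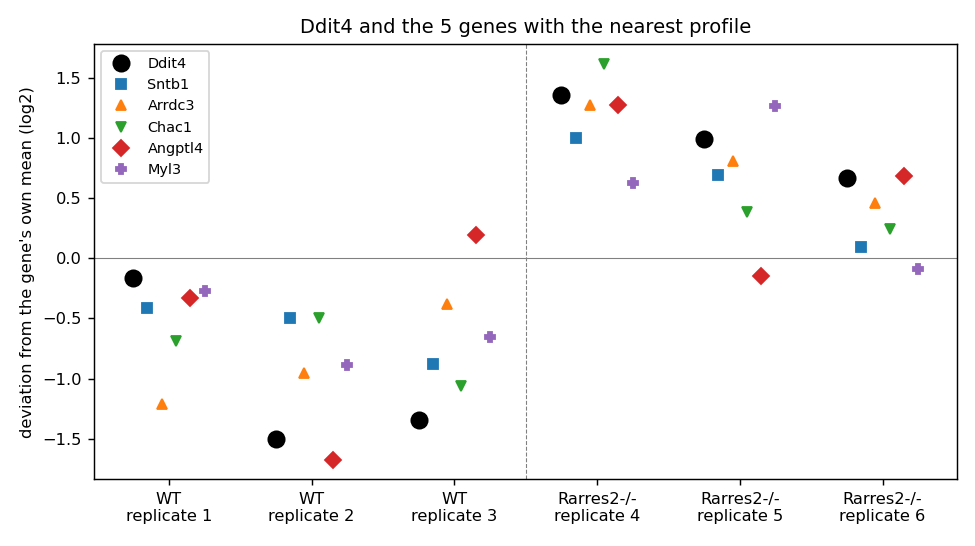
Deviation of log2(FPKM + 1) from the gene's own mean (vertical axis) in each of the 6 libraries, for Ddit4 (large black circles) and the 5 genes with the nearest profile. All 6 genes are above their mean in Rarres2-/- replicate 4. Angptl4 departs from Ddit4 in WT replicate 3 and Rarres2-/- replicate 5. Other departures include Arrdc3 in WT replicates 1 and 3, and Sntb1 and Chac1 in WT replicate 2.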

How the data were processed

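Total RNA came from a kit for fatty tissue and was sequenced on Illumina, per the labels' protocols. Per the file headers, the authors deposited FPKM in a table for each library. That of WT replicate 3 is headed by its sample name and was read as FPKM because its gene rows and scale match the others (median of tested genes 9.23, others 9.05 to 9.37). Bowtie and mm10 are named in the submitters' processing notes. The sources used here do not give the program for FPKM, its annotation or any version. The 737 rows without a symbol (0.793% to 4.91% of summed values) were left out. In WT replicate 1 the small nucleolar RNA gene Snord2 held 62.1% of the sum.

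Genes that averaged 1 FPKM or more were tested on log2(FPKM + 1) with limma 3.58.1 in R 4.3.3 (trend, two-sided), Rarres2-/- minus WT, with Benjamini-Hochberg adjustment over all 11086 genes and a threshold of 0.05. The code was tested on simulated data. The members, lists and alternatives were chosen with earlier results of these data known. Named genes are the 10 members, Rarres2, up to 4 genes per list with the smallest p among those whose genotypes do not overlap, and the 5 nearest to Ddit4. Zbtb16, Ddit3, Eif4ebp1, Ddit4l, Tbc1d7 and Rhebl1 were named after their values were seen, as were Adipoq, Ppargc1a, Elovl3, Cidea, Cox8b and Snord2. Older symbols matched 4 genes, and Lamtor1, Lamtor4 and Lamtor5 were not analysed here. Coordinates and promoters are from RefSeq GRCm38.p6 and exon counts from GENCODE M21. Alternatives were a pseudocount of 0.1, testing all genes above 0, requiring 5 FPKM in 3 libraries, 3 other scalings (upper quartile, quantile, and by the sum without the 20 most abundant genes, the last chosen after seeing the data), array weights, no variance trend and libraries left out.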

Additional observations from a re-analysis of the deposited data

How the results depend on the processing

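By limma, the count of genes past the threshold was 0 with all libraries and 0 to 1 when any 1 library was left out, the 1 being Rarres2 without Rarres2-/- replicate 5 and another gene without replicate 6. It was 1 with a filter of 5 FPKM in 3 libraries, with upper-quartile scaling and with scaling without the 20 most abundant genes, 68 without WT replicate 1 and Rarres2-/- replicate 4, and 1524 with array weights. In the last 2 of these fits Ddit4 had adjusted p-values by limma of 0.0230 and 0.00218. With array weights, whose estimation stopped before full convergence and gave Rarres2-/- replicate 5 a weight of 6.19 and replicate 4 one of 0.179, Sesn2 (0.0481), Mtor (0.0180) and Rptor (0.0283) were also below 0.05. The log2 difference of Rarres2 was -7.51 (adjusted p = 0.0597 by limma) and passed the threshold with the filter of 5 FPKM (-7.51), upper-quartile scaling (-7.54), scaling that leaves out the 20 most abundant genes (-7.55), array weights (-6.47), without Rarres2-/- replicate 5 (-8.20, adjusted p = 0.00520) and without WT replicate 1 and Rarres2-/- replicate 4 (-7.04). It ran from -8.20 to -6.93 with 1 library left out. Its adjusted p by limma was 0.254 with all genes above 0 tested, 0.469 with a pseudocount of 0.1 (-8.40) and 0.102 to 0.423 without any of the other 5 libraries in turn. The count of members whose genotypes do not overlap, 5, was 4 under quantile normalization (11.1% of all genes apart), 3 under scaling without the 20 most abundant genes (8.33%), 9 without both libraries (58.1%) and 5 to 7 with 1 left out (13.8% to 34.4%). For pathway genes the count of 10 was 6 under that scaling (9.09%, against 8.33% of all genes) and 36 without both libraries (54.5%, below the 58.1% of all genes). It was 13 to 26 with 1 library left out, the 13 without WT replicate 3 being 19.7% against 15.6%, and without Rarres2-/- replicate 5 it was 14 (21.2% against 13.8%). Sesn2, Sesn3 and Tsc1 did not pass the filter of 5 FPKM. Of the 10 members, Tsc1 alone changed sign in any setting, to -0.14 without Rarres2-/- replicate 4, -0.06 with array weights and -0.16 without both libraries; the cause was not tested. No paired analysis was possible because the replicate numbers are not shared between genotypes. FPKM keeps no counts, so no counting error can be given for the low genes Sesn2, Sesn3 and Tsc1.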
